A study of Mus musculus with 12 samples.

Results

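S100 proteins are small calcium-binding proteins with paired EF-hand loops, and most of them sit in a cluster of genes beside the epidermal differentiation genes. Inside the cell they bind target proteins such as annexins and myosin when calcium rises, and several are released and act on receptors such as Tlr4 and Ager (RAGE). In surface epithelia they are known for roles in barrier formation, wound response and antimicrobial defence.

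The members described here are 10 S100 genes, S100a1, S100a4, S100a6, S100a8, S100a9, S100a10, S100a11, S100a13, S100a14 and S100a16, taken as every probe set whose platform gene symbol is one of them. Of the 10, 9 had a probe set of their own, 13 probe sets in all, out of 18194 genes named on the array. All 13 probe sets passed the filter on low signal, as did 14163 genes in all, and the brightest probe set of a gene was its main one. S100a11 was represented by a single probe set that the platform annotation shares with Gm12854 and the pseudogene S100a11-ps, so no value is given for it.

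RNA came from laser-captured epithelium of the conjunctival fornix, the recess between eyelid and eyeball, of mice of mixed background. Each of 12 samples was hybridized to 1 Affymetrix array. There were 3 samples labelled Klf4CN at postnatal day 14, a conditional knockout of the zinc finger transcription factor gene Klf4, and 3 wild-type samples each at postnatal days 9, 14 and 20 (PN9, PN14 and PN20). The ages ask how this captured tissue changes after birth, and the knockout asks which genes depend on Klf4. The Cre line and the deleted part of Klf4 are not given in the sources used here. No label names the animal behind a sample, so each p-value reflects how far these samples differ among themselves, part of which may be technical.

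Signals were scaled to a common array median, folds are on the log2(signal + 16) scale, and a change passed at a limma adjusted p under 0.05 over all 14163 genes. Levels are given as mean ± SD of 3 arrays, changes as log2 change ± standard error, and the intervals of folds are 95% intervals. Klf4 itself read 10920, 8815 and 7417 on the arrays labelled Klf4CN, against 4385, 6824 and 5285 on wild-type PN14 arrays, and it is not known whether its probe sets lie in the deleted part. The goblet cell mucin gene Muc5ac was Present on none of the Klf4CN arrays, with a mean of 3.44 ± 1.53, against 821 ± 279.6 on wild-type PN14 arrays, all 3 Present (lower, adjusted p = 0.000576). It was 37.4-fold lower with each Klf4CN array given at least the lowest signal it showed for any probe set detected throughout its group. This floor is not a detection limit of the Muc5ac probe set, so the fold is not a firm lower bound. Of 15 conjunctival epithelium markers, 14 were called Present on all 3 Klf4CN arrays, 13 at PN9 and 15 at PN14 and at PN20. Muc5ac was the one of these markers that passed in Klf4CN over PN14, with 0.184% of all genes called. All 14 fibroblast markers were also Present on all 3 arrays of every group, and of 14 skeletal muscle markers 14 were so in Klf4CN, 7 at PN9, 14 at PN14 and 12 at PN20. The fibroblast markers summed on average to 58080 in Klf4CN, 71670 at PN9, 57200 at PN14 and 39280 at PN20. The epithelium markers summed to 37940, 39310, 50720 and 56490 in the same groups. Sums of different genes do not measure cell shares, and whether a change lay within the epithelium was not tested. The ratio of 3′ to 5′ beta-actin signal, which is higher in shortened RNA, was 12.7 ± 6.44 in Klf4CN, 34.9 ± 11.4 at PN9, 19.0 ± 7.14 at PN14 and 12.7 ± 3.45 at PN20. Klf4CN replicate 3 had the lowest mean correlation with its own group, 0.942, against 0.95 to 0.977 for the other arrays, and leaving it out left the count of members called in Klf4CN at 0.

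Across the 3 ages, S100a8, S100a14 and S100a4 changed by limma's moderated F (3 of 9 members, with 20.2% of all genes called), each with its own course. With the log2 actin ratio as a covariate S100a8 alone of the 3 still passed, with 421 of 14163 genes called against 2854 without it. The mean ratio itself fell with age, from 34.9 at PN9 to 19.0 at PN14 and 12.7 at PN20. This fit therefore cannot separate the ratio from a steady change with age, and it does not rank the 3 members. Among the wild-type ages S100a8 was highest at PN14, S100a14 was higher at both later ages, and S100a4 was lowest at PN20. In Klf4CN over wild type at PN14, 0 of 9 members passed (0.184% of all genes called), and S100a8 had the smallest p.

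**Figure D1:**
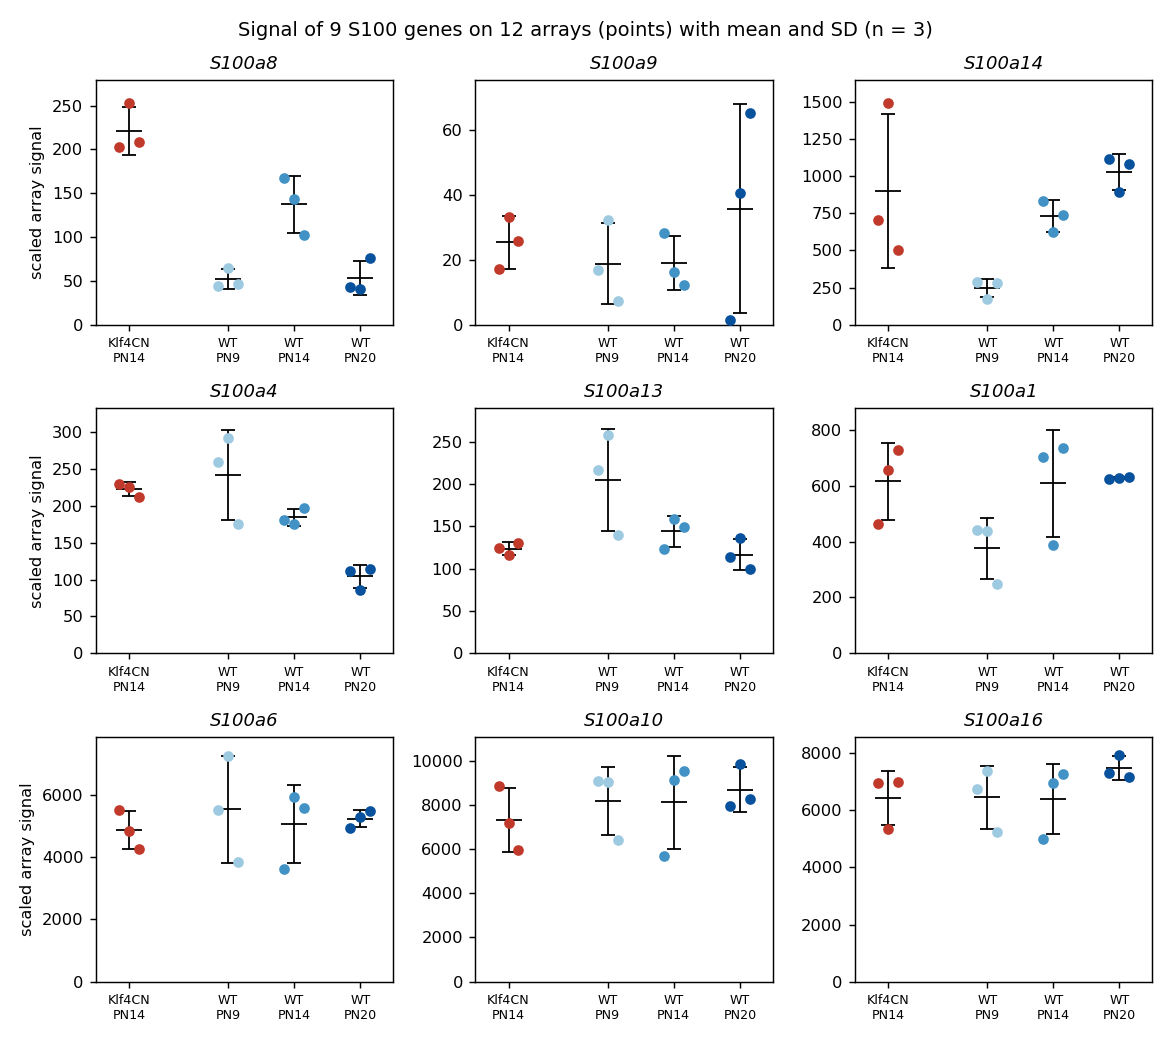
Scaled array signal (vertical axis, linear, from 0) of the main probe set of 9 S100 genes on each of 12 arrays (points), with mean and SD of 3 arrays (bars), for Klf4CN at PN14 and wild type (WT) at PN9, PN14 and PN20. S100a8 stands at 102.5 to 167 on the WT PN14 arrays, above every WT array of the other ages, and at 203 to 253 on the Klf4CN arrays. S100a14 stands at 175 to 285 on the PN9 arrays and at 505 to 1489 on all others.

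In PN14 over PN9, 2 of 9 members rose and 0 fell, with 6.95% of all genes called (4.31% higher and 2.64% lower). In PN20 over PN14, 0 rose and 1 fell, with 1.36% called (0.664% higher and 0.692% lower). In PN20 over PN9, 1 rose and 2 fell, with 24.3% called (13.5% higher and 10.8% lower). In Klf4CN over PN14, 0 passed in limma and 1 had an unadjusted p under 0.05, with 0.0777% of all genes called higher and 0.106% lower, and the count of members was 0 under every alternative run.

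The 3 arrays of one group lay wholly to one side of the other for 2 members in PN14 over PN9 (29.8% of all genes), 3 in PN20 over PN14 (30.3%), 4 in PN20 over PN9 (43.6%) and 2 in Klf4CN over PN14 (13.1%). The members' median log2 changes in these 4 comparisons were -0.02, 0.10, 0.10 and 0.05, beside medians over all genes of 0.01, 0.01, 0.02 and 0.00. The PN14 wild-type arrays enter 3 of the 4 comparisons, so these are not independent of each other. These shares rest on 9 genes.

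**Figure D2:**
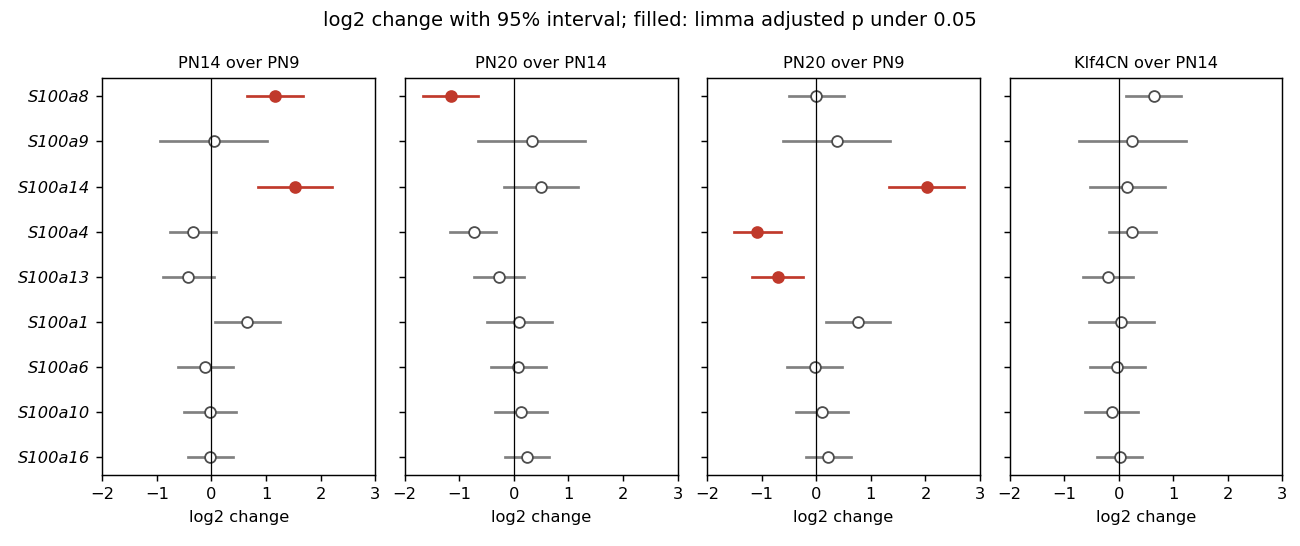
log2 change (horizontal axis) with its 95% interval for 9 S100 genes in 4 comparisons; filled red points passed a limma adjusted p under 0.05. S100a8 passes in opposite directions in PN14 over PN9 (1.16) and PN20 over PN14 (-1.16), and no point is filled in Klf4CN over PN14.

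S100a8 and S100a9 encode the subunits of calprotectin, a complex that is abundant in neutrophils and monocytes, sequesters zinc from microbes and is a ligand of Tlr4; stressed epithelial cells also make it. Their genes are neighbours on chromosome 3. The upstream bases of both are shown because the subunits work as a pair and because Klf4, a Krüppel-like factor, is the gene the knockout is labelled for. The sequences are the 250 bases before the annotated start in RefSeq (GRCm38.p6), at chr3:90668821-90669070 on the plus strand for S100a8 and at chr3:90695722-90695971 on the minus strand for S100a9. Capitals mark CACCC, the core letters of the element that Krüppel-like factors bind, or GGGTG, the same letters on the opposite strand.
S100a8: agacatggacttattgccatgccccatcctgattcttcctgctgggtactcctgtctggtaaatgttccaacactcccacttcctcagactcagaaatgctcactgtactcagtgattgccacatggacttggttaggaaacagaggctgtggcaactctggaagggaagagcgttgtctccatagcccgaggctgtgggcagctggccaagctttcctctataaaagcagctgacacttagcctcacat
S100a9: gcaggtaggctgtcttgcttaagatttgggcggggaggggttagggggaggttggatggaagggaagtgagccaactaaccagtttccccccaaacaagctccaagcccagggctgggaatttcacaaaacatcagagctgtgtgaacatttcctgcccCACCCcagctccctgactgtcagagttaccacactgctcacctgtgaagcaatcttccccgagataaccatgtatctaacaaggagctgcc

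The S100a9 window held 1 match to CACCC, 91 bases before the start, and the S100a8 window held none on either strand. Of 32851 RefSeq promoter windows of the same 250 bases, 52.0% held at least 1 match. The S100a8 window held TATAAA 30 bases before the start, as did 12.4% of all windows at any position and on either strand, and the S100a9 window held none. No match says only that these letters are not in the window.

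S100a8 read 44.3, 65.3 and 47.1 on the 3 PN9 arrays, 167, 143 and 102.5 at PN14, and 42.7, 41.3 and 75.8 at PN20. All PN14 arrays lay above all arrays of the other ages, and the PN20 arrays overlapped those of PN9. Every one of these arrays had a Present call.

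At PN14 S100a8 averaged 137.6 ± 32.6, against 52.2 ± 11.4 at PN9, and rose 2.24-fold (log2 change 1.16 ± 0.24, adjusted p = 0.0125). At PN20 it averaged 53.3 ± 19.5 and fell 2.24-fold relative to PN14 (log2 change -1.16 ± 0.24, adjusted p = 0.0323). PN20 over PN9 was 1-fold, with an interval of 0.705 to 1.42. The F test over the 3 ages gave an adjusted p of 0.00454 and lay between 0.000958 and 0.0257 under every alternative run, so the change over age stayed past the threshold in all of them. The pairwise calls were less firm. The PN14 over PN9 rise no longer passed when PN9 replicate 1 was left out (adjusted p = 0.0583), when PN14 replicate 1 was (adjusted p = 0.0624), and with the log2 actin ratio as a covariate (log2 change 0.99, adjusted p = 0.1). The fall at PN20 did not pass when either of 2 PN20 arrays was left out, replicate 1 (adjusted p = 0.117) and replicate 2 (adjusted p = 0.145), or either of 2 PN14 arrays, likewise replicate 1 (adjusted p = 0.131) and replicate 2 (adjusted p = 0.0946). With no filter on low values its adjusted p was 0.0852.

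On the arrays labelled Klf4CN, S100a8 read 203, 253 and 208, above all wild-type PN14 arrays at 167, 143 and 102.5. The means were 221 ± 27.5 in Klf4CN and 137.6 ± 32.6 in wild type, a 1.56-fold difference (log2 change 0.64 ± 0.24, interval 1.10 to 2.22-fold). Its unadjusted limma p was 0.0161 and its adjusted p 0.455, so it did not pass, and over the alternatives the adjusted p ranged from 0.174 to 0.942. Groups that do not overlap with Klf4CN higher occurred in 6.47% of all genes.

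S100a9 was near the lower limit of the arrays. It read 16.9, 32.3 and 7.45 at PN9, 28.4, 16.3 and 12.3 at PN14, and 1.46, 40.7 and 65.3 at PN20, and it had a Present call on 1, 2 and 2 of the 3 arrays at these ages. In Klf4CN it read 17.2, 33.4 and 25.8, with all 3 arrays Present, against 28.4, 16.3 and 12.3 in wild type at PN14. No order of the groups can be read from these values, since the 3 PN20 arrays alone span the range of all 12. Its PN14 over PN9 ratio was 1.03-fold with an interval of 0.521 to 2.03, and the ratio of Klf4CN over wild type at PN14 was 1.19-fold with an interval of 0.602 to 2.35. Whether its changes differ from those of S100a8 was not tested.

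The summed signal of 15 macrophage and dendritic cell markers ranged from 5445 to 7547 in Klf4CN, 3801 to 4231 at PN9, 5327 to 6085 at PN14 and 4371 to 4927 at PN20. Aif1 and Cd207 were Present on no array. Of 14 measured members 2 passed in PN14 over PN9, both higher, with 6.95% of all genes called. They were Ctss, the lysosomal protease cathepsin S (2.97-fold, adjusted p = 0.00926), and Lyz2, the lysozyme of myeloid cells (2-fold, adjusted p = 0.0367). In PN20 over PN14, with 1.36% of all genes called, 1 passed, Tyrobp, a signalling adaptor of myeloid cells, which fell 1.96-fold (adjusted p = 0.0302). The list did not move as one: Ctss averaged 1969 ± 176 at PN20 and 1554 ± 196 at PN14 (1.27-fold higher, adjusted p = 0.607), Cd68 88.0 at PN20 and 84.3 at PN14 (adjusted p = 0.943), and Lyz2 199 ± 30.9 at PN20 and 421 ± 35.5 at PN14 (2.04-fold lower, adjusted p = 0.0634). The summed signal is weighted to its bright genes. Among these, Ctss averaged 515.6 at PN9, and Csf1r averaged 1781 at PN9, 1934 at PN14 and 1246 at PN20.

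Of 14 neutrophil markers on the array, 8 were Present on none of the 12 arrays, among them the granule genes Camp, Mpo, Elane, Prtn3 and Ctsg. Of 7 that passed the filter on low signal, 1 passed the test, Itgam, an integrin of neutrophils and other myeloid cells, which had no Present call at PN9. It rose in PN14 over PN9 (adjusted p = 0.00776, with 6.95% of all genes called) and in PN20 over PN9 (adjusted p = 0.000128, with 24.3% called). The folds were 2.03 and 3.1 with each PN9 array given at least the lowest signal it showed for any probe set detected throughout its group. This floor is not a detection limit of the Itgam probe set, so these folds are not firm lower bounds. The summed signal of the 14 neutrophil markers, 1000 to 4967 in Klf4CN, 413.5 to 512.3 at PN9, 509.8 to 1566 at PN14 and 600.1 to 1166 at PN20, included Ltf, lactoferrin, which glandular epithelium also makes. Ltf alone read 566.7 to 4599 in Klf4CN, 155 to 241.5 at PN9, 276.8 to 1210 at PN14 and 272.7 to 880 at PN20. Skeletal muscle markers summed to 21070 to 54090 in Klf4CN, 815 to 16150 at PN9, 21330 to 33340 at PN14 and 4229 to 18190 at PN20. The part of these cells in the S100a8 signal was not tested, and in captured tissue fewer cells of a type and less RNA per cell cannot be told apart.

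**Figure D3:**
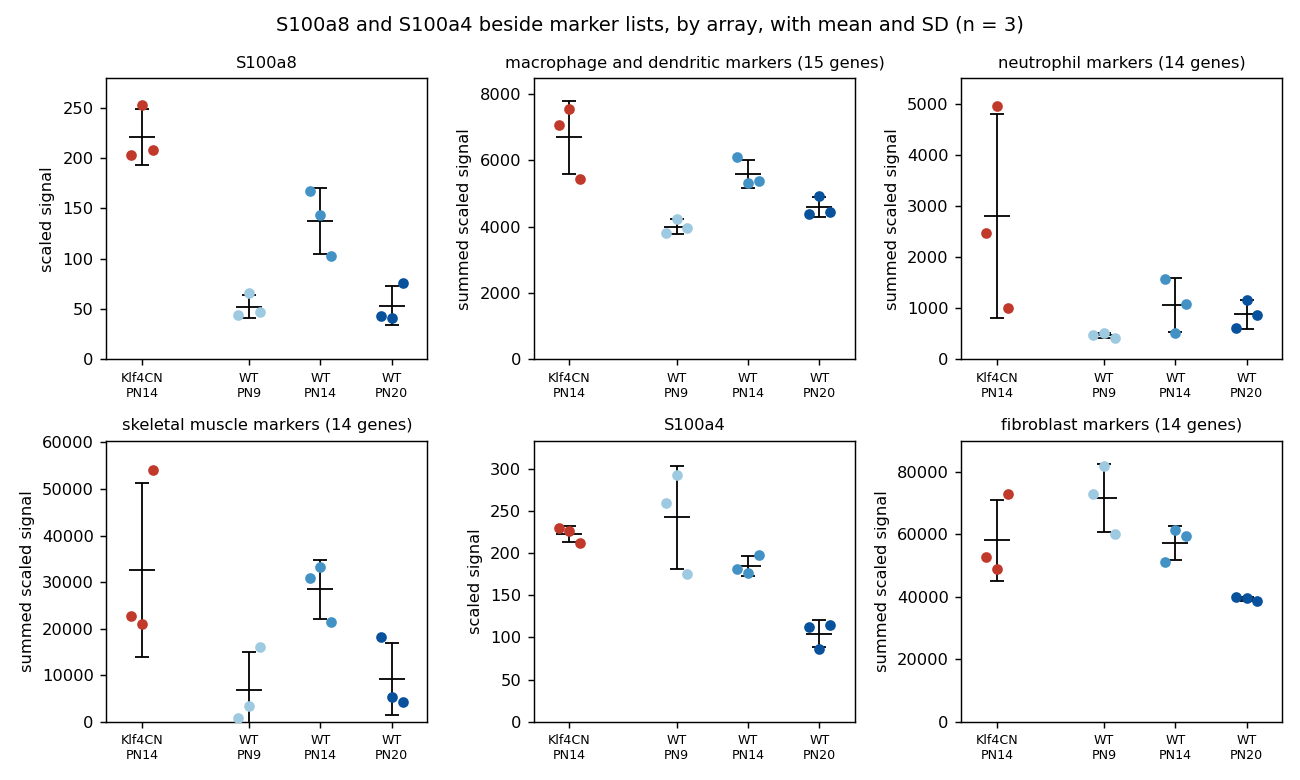
Scaled signal of S100a8 and S100a4, and summed scaled signal of 4 marker lists, on each array (points; vertical axes linear, from 0) with mean and SD of 3 arrays (bars, cut at 0 for muscle at PN9). The macrophage and dendritic sum is lowest at PN9 (3801 to 4231) and higher at PN14 (5327 to 6085) than at PN20 (4371 to 4927), and the fibroblast sum is lowest at PN20 (38510 to 39790). The macrophage and dendritic sum is weighted to its bright genes, Csf1r and Ctss among them.

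S100a14 encodes an S100 protein known mainly from epithelia. Its signal was 285, 175 and 282 at PN9, 835, 621 and 739 at PN14, and 1118, 892 and 1081 at PN20. The 3 ages did not overlap, and the order was PN9, PN14, PN20. The PN14 mean of 732 ± 107 was 2.88-fold above the PN9 mean of 247 ± 62.9 (log2 change 1.53 ± 0.32, adjusted p = 0.0145). The PN20 mean of 1030 ± 121 was 4.04-fold above PN9 (log2 change 2.02 ± 0.32, adjusted p = 0.000706), the largest log2 change in size among the 9 members in any of the 4 comparisons. PN20 over PN14 was 1.4-fold, with an interval of 0.875 to 2.25 and an adjusted p of 0.473, and did not pass. Leaving out PN9 replicate 2 gave the rise at PN14 an adjusted p of 0.0578 and leaving out PN14 replicate 1 one of 0.0624, and with the log2 actin ratio as a covariate its log2 change was 1.03 (adjusted p = 0.1) and that of the rise at PN20 over PN9 was 1.22 (adjusted p = 0.0596). With that covariate the F test over the ages gave an adjusted p of 0.0848.

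In Klf4CN, S100a14 read 708, 1489 and 505, against 835, 621 and 739 in wild type at PN14. One array lay above and one below the wild-type range, the SD was 519.5 in Klf4CN and 107 in wild type, and the 1.12-fold ratio had an interval of 0.696 to 1.79. Conjunctival epithelium markers summed to 25460 to 46070 in Klf4CN, 28470 to 47410 at PN9, 42840 to 59800 at PN14 and 54910 to 58310 at PN20. On the Klf4CN arrays, in the order of the S100a14 values, this sum was 42290, 46070 and 25460. The skeletal muscle sum was 22620, 21070 and 54090 on the same arrays. Of the 15 epithelium markers, 6 rose and 0 fell in PN14 over PN9, with 4.31% of all genes called higher and 2.64% lower. Among the 6 were the tight junction gene Cldn7 (4.21-fold, adjusted p = 0.0043) and Muc5ac (8.38-fold, adjusted p = 0.00487, with 1 of 3 PN9 arrays Present). The keratin genes did not move as one, with log2 changes that did not pass of -0.84 for Krt18, -0.63 for Krt14, -0.28 for Krt4 and 0.01 for Krt8, while Krt13 rose 3.55-fold (adjusted p = 0.0399). In PN20 over PN9, with 13.5% of all genes called higher and 10.8% lower, 8 markers rose and 1 fell, Krt14 (1.94-fold, adjusted p = 0.0235). Their part in the S100a14 signal was not tested.

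S100a4, also called fibroblast-specific protein, binds the non-muscle myosin heavy chain Myh9 and is known in motile cells, fibroblasts and leukocytes. Its 250 upstream bases, shown because its 3 Klf4CN arrays were above the wild-type ones, lie at chr3:90603520-90603769 on the plus strand in GRCm38.p6 (RefSeq), with capitals as above.
S100a4: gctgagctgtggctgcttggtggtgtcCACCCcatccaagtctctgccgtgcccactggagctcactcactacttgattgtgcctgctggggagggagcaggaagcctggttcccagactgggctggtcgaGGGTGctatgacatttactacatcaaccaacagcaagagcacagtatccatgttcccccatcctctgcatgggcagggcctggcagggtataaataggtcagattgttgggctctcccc

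The window held CACCC 223 bases and GGGTG 119 bases before the start, and TATAAA 31 bases before it. RefSeq promoter entries existed for 8 of the 10 members, and 5 of these 8 held CACCC on either strand: S100a1, S100a4, S100a9, S100a13 and S100a16. S100a6, S100a8 and S100a11 held none, beside the 52.0% of all windows that hold it. TGANTCA, the AP-1 core, was found in an entry of S100a16 and in that of S100a11, and in 6.75% of all windows. The matches describe letters and show no binding.

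S100a4 read 259, 293 and 175 at PN9, 181, 176 and 198 at PN14, and 112, 86.3 and 115 at PN20. The PN20 arrays lay below all others, while PN9 and PN14 overlapped. The PN20 mean of 104 ± 15.7 was 2.11-fold below the PN9 mean of 242 ± 60.7, and the fall passed (log2 change -1.08 ± 0.20, adjusted p = 0.00192), though with the log2 actin ratio as a covariate, at a log2 change of -1.04, its adjusted p was 0.0596. With that covariate the F test over the ages gave an adjusted p of 0.0868. PN20 over PN14, 1.67-fold lower (log2 change -0.74 ± 0.20), missed the threshold at an adjusted p of 0.0766, and PN14 over PN9 was 1.26-fold lower with an adjusted p of 0.307. The PN20 over PN14 difference passed without PN9 replicate 3 (adjusted p = 0.0446) or Klf4CN replicate 3 (adjusted p = 0.0454), and its adjusted p ranged from 0.0127 to 0.271 over all alternatives.

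In Klf4CN, S100a4 read 229, 226 and 212, all above 181, 176 and 198 in wild type at PN14. The difference was small, 1.19-fold (log2 change 0.25 ± 0.20, adjusted p = 0.775), and did not pass.

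The 14 fibroblast markers summed to 48800 to 72800 in Klf4CN, 60230 to 81890 at PN9, 51030 to 61240 at PN14 and 38510 to 39790 at PN20. In PN20 over PN9, with 10.8% of all genes called lower, 9 of them fell and 0 rose, among them the collagen gene Col6a1 (3.03-fold, adjusted p = 6.66e-05) and the intermediate filament gene Vim (2.71-fold, adjusted p = 0.00053). Endothelial markers, 8 on the array, summed to 923.1 to 1671 in Klf4CN, 1280 to 2108 at PN9, 950.0 to 1139 at PN14 and 798.3 to 883.0 at PN20. The part of these cells in the S100a4 signal was not tested.

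S100a13, a protein that takes part in the release of growth factors such as FGF1 without a signal peptide, read 216, 258 and 139 at PN9, 123.5, 159 and 150 at PN14, and 113, 136 and 99.7 at PN20. All PN20 arrays lay below all PN9 arrays, while PN14 overlapped both. In PN20 over PN9 it fell 1.63-fold (log2 change -0.71 ± 0.22, adjusted p = 0.03). The fall did not pass when PN20 replicate 1 (adjusted p = 0.0868) or replicate 3 (adjusted p = 0.114) was left out, nor when PN9 replicate 1 (adjusted p = 0.0953) or replicate 2 (adjusted p = 0.118) was. With no filter on low values its adjusted p was 0.0789, and with arrays scaled to the median of all probe sets 0.0536. With the log2 actin ratio as a covariate the log2 change was -0.38 (adjusted p = 0.505). In Klf4CN it read 124, 115.5 and 131, against 123.5, 159 and 150 in wild type, which overlapped. The ratio of Klf4CN over wild type was 0.875 (interval 0.633 to 1.21), or 1.14-fold lower.

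S100a1, known in muscle and heart as a regulator of calcium pumps and release channels, lies next to S100a13 on chromosome 3. Its main probe set read 441, 438 and 250 at PN9, 703, 387 and 734.5 at PN14, and 624, 627.5 and 631 at PN20. The PN20 arrays lay above all PN9 arrays and close to each other, while 1 PN14 array lay within the PN9 range. PN20 over PN9 was 1.69-fold (log2 change 0.76 ± 0.27, adjusted p = 0.0591) and PN14 over PN9 was 1.58-fold (log2 change 0.66 ± 0.27, adjusted p = 0.147), and neither passed. The PN20 over PN9 difference passed without PN14 replicate 2 (adjusted p = 0.0371) or Klf4CN replicate 3 (adjusted p = 0.0421). It also passed with array weights (adjusted p = 0.0353) and with only the groups compared fitted (adjusted p = 0.0276). Over all alternatives its adjusted p ranged from 0.0276 to 0.361. In Klf4CN the values were 463, 657 and 729, against 703, 387 and 734.5 in wild type, with a ratio of 1.03-fold (interval 0.687 to 1.55). The skeletal muscle sums given above were lower at PN20 than at PN14, while S100a1 averaged 627 ± 3.60 at PN20 and 608 ± 192 at PN14, and their part in its signal was not tested.

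S100a6, S100a10 and S100a16 passed in no comparison, and on their main probe sets the arrays of the groups compared overlapped in all 4. S100a6, or calcyclin, the partner of Cacybp, read 5524, 7248 and 3833 at PN9, 3628, 5951 and 5592 at PN14, and 4953, 5284 and 5491 at PN20. The 3 ages overlapped, and its fold changes between ages had intervals within 0.651 to 1.5. In Klf4CN it averaged 4878 ± 623 against 5057 ± 1251 in wild type, with an interval of 0.692 to 1.39-fold.

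S100a10, or p11, forms a complex with annexin A2 and has lost calcium binding. Its main probe set read 9074, 9033 and 6411 at PN9, 5706, 9114 and 9545 at PN14, and 7944, 9849 and 8272 at PN20. In Klf4CN it read 8843, 7169 and 5933, against 5706, 9114 and 9545 in wild type at PN14. The groups overlapped, and PN20 over PN9 was 1.07-fold (interval 0.768 to 1.5).

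The other probe sets of S100a10 gave other courses. One read 1185, 1269 and 959 at PN9, 1379, 2049 and 2074 at PN14, and 1690, 1918 and 1979 at PN20, without overlap between PN9 and either later age. Its log2 change was 0.71 ± 0.30 in PN20 over PN9 (adjusted p = 0.116 over all probe sets kept) and 0.67 ± 0.30 in PN14 over PN9 (adjusted p = 0.195). It did not pass, and the main probe set had log2 changes of 0.10 ± 0.23 and -0.03 ± 0.23 in the same comparisons. The dimmest read 212, 129 and 70.1 in Klf4CN, against 131, 228 and 241 in wild type at PN14, with a log2 change of -0.56 ± 0.34 (adjusted p = 0.748). The name of the main probe set ends in _x_at, the platform's mark for probes that can match other transcripts, as does that of S100a16. The names of the S100a8 probe set and of the main S100a1 probe set end in _s_at, another platform mark. What else any of these probes match was not checked.

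S100a16, a widely expressed member, read 6750, 7386 and 5233 at PN9, 4990, 6950 and 7257 at PN14, and 7314, 7946 and 7166 at PN20 on its main probe set. PN20 over PN9 was 1.17-fold (interval 0.879 to 1.55, adjusted p = 0.433). This difference passed under quantile normalization (log2 change 0.34, adjusted p = 0.0427). In Klf4CN the mean was 6435 ± 954, against 6399 ± 1230 in wild type (interval 0.761 to 1.34-fold). Its second probe set gave log2 changes of -0.21 ± 0.21 in Klf4CN over wild type and 0.39 ± 0.21 in PN20 over PN9, and neither passed. The second probe set of S100a1 read between 2.15 and 36.5 and was Present on no array.

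**Figure D4:**
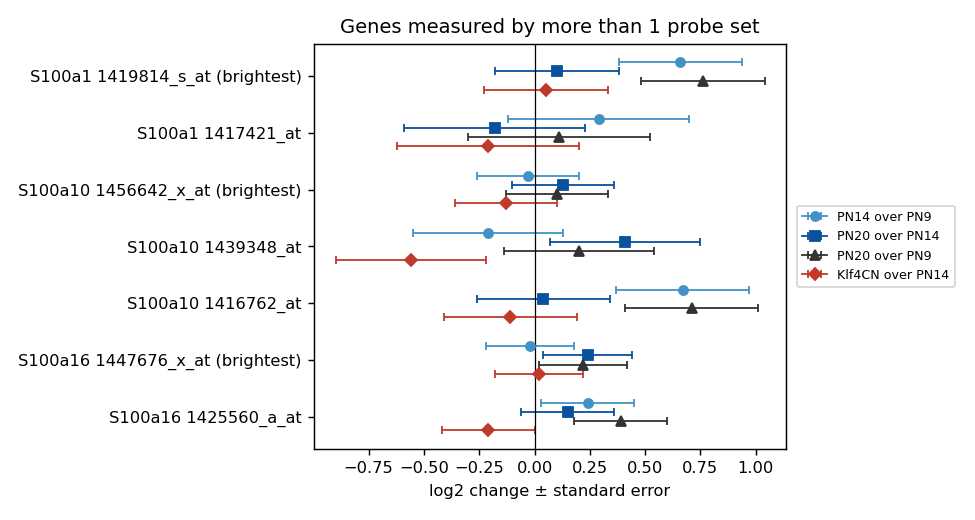
log2 change (horizontal axis) ± standard error of every probe set of the 3 S100 genes with more than 1, in 4 comparisons (markers), from the fit over all probe sets kept. For S100a10 one dimmer probe set stands at 0.67 and 0.71 in PN14 and PN20 over PN9, and the brightest at -0.03 and 0.10.

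By the authors' own rule, which asks for Present calls, groups that do not overlap, a mean difference over 2-fold and a pairwise score beyond 5, their deposited table passed S100a8 and S100a14 in PN14 over PN9, S100a8 in PN20 over PN14, S100a14 in PN20 over PN9 and no member in Klf4CN. The score in the authors' deposited table sums the calls of 9 pairwise array comparisons, and for S100a8 it was 8, -8, 0 and 6 in PN14 over PN9, PN20 over PN14, PN20 over PN9 and Klf4CN over PN14. In PN20 over PN9 the authors' deposited score was -4 for S100a4 and 0 for S100a13, and S100a4 and S100a13 did not pass their rule there. For the main S100a1 probe set it was 7 in PN14 over PN9 and 6 in PN20 over PN9. In the same 2 comparisons a dimmer S100a10 probe set scored 7 and 9, and the main one -1 and 1. None of these passed the authors' rule.

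Among 6 further genes on the array, other S100 genes and the S100P-binding protein gene S100pbp, 3 passed the filter on low signal: S100a3, S100b and S100pbp. S100a5, S100a7l2 and S100g were Present on no array. S100a3, a protein known from hair cuticle, read 185, 128 and 149 at PN9, 267, 428 and 355 at PN14, and 518, 519 and 454 at PN20. It rose 2.14-fold in PN14 over PN9 (log2 change 1.09 ± 0.28, adjusted p = 0.0324) and 3.04-fold in PN20 over PN9 (log2 change 1.60 ± 0.28, adjusted p = 0.00123), without overlap between the ages. In Klf4CN it averaged 306 ± 123 against 350 ± 80.4 in wild type, which did not pass. S100pbp fell 1.53-fold in PN20 over PN9 (log2 change -0.61 ± 0.17, adjusted p = 0.0169), and S100b passed in no comparison.

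Of 17 listed binding partners and receptors, 16 were measured. In PN20 over PN9, with 13.5% of all genes called higher and 10.8% lower, 4 rose: Tlr4, a receptor of S100a8 (2.5-fold, adjusted p = 0.00509), Cacybp, which binds S100a6 (2.09-fold, adjusted p = 0.00645), and the annexins Anxa2, which binds S100a10 (1.72-fold, adjusted p = 0.049), and Anxa1, which binds S100a11 (1.71-fold, adjusted p = 0.00333). In the same comparison 4 fell: Anxa6 (3.21-fold, adjusted p = 0.000168), the adhesion molecule Mcam (2.44-fold, adjusted p = 0.0308), Myh9 (1.59-fold, adjusted p = 0.0495) and Ager, the receptor RAGE. Ager was Present on no array, so no fold is given for it.

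Anxa2 averaged 9712 ± 421 at PN20 and 5709 ± 1186 at PN9, while the main probe set of its partner S100a10 averaged 8688 ± 1019 and 8173 ± 1526. Cacybp averaged 1002 ± 18.7 at PN20 and 474 ± 59.2 at PN9, while S100a6 averaged 5243 ± 271 and 5535 ± 1708. So on these probe sets both partners passed and both S100 genes did not, though the differences between partner and S100 gene were not tested. The other probe sets of S100a10 had log2 changes of 0.71 ± 0.30 and 0.20 ± 0.34 in PN20 over PN9, and neither passed. Anxa2 had a log2 change of 0.78 ± 0.27 there, and a dimmer probe set of Anxa2 averaged 73.1 ± 37.3 at PN20 and 127 ± 48.9 at PN9. In PN14 over PN9, with 6.95% of all genes called, Ager was the single partner past the threshold. In PN20 over PN14, with 1.36% called, it was Anxa6, which fell 2.25-fold (adjusted p = 0.0187). In Klf4CN over PN14, 0 of 16 passed, and Cd36, a fatty acid receptor, was 2.21-fold higher (adjusted p = 0.354).

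Of 35 epidermal differentiation genes of the same chromosome region on the array, 22 were measured. Lor, loricrin of the cornified envelope, fell 4.01-fold in PN14 over PN9 (log2 change -2 ± 0.44, adjusted p = 0.0181), with means of 39.8 ± 17.7 at PN14 and 261.5 ± 245 at PN9. No other of the 22 passed in any comparison, beside 6.95% of all genes called in PN14 over PN9 and 24.3% in PN20 over PN9. Of 20 other EF-hand genes, 2 rose and 1 fell in PN14 over PN9, beside 6.95% of all genes called, and 4 rose and 3 fell in PN20 over PN9, beside 24.3% called. Rcn3 fell 4.80-fold (adjusted p = 6.19e-05) and Rcn2 rose 3.66-fold (adjusted p = 0.000825) in PN20 over PN9; both are calcium-binding proteins of the secretory pathway. Pvalb, the calcium buffer parvalbumin of fast muscle, rose 15.3-fold in PN14 over PN9 (adjusted p = 0.00852, with 1 of 3 PN9 arrays Present) and belongs to the muscle markers given above. In Klf4CN over PN14, 0 of 20 passed.

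Across the 12 arrays, S100a6, S100a10 and S100a16 were correlated, the last 2 through main probe sets marked _x_at, with Pearson's r of 0.85, 0.72 and 0.74 between S100a6 and S100a10, S100a6 and S100a16, and S100a10 and S100a16 on the log2 scale. S100a13 and S100a14 varied in opposite directions (r = -0.84), and S100a8 and S100a9 had an r of 0.22. The genes of most like pattern were C1galt1c1 (r = 0.98), Larp1b (r = 0.979) and Spcs1 (r = 0.97) for S100a14, Sphkap (r = 0.921), Slc5a3 (r = 0.914) and Ms4a6c (r = 0.909) for S100a8, and S100pbp (r = 0.962), Nmb (r = 0.953) and Stk16 (r = 0.936) for S100a4. For S100a10 they were Ptpn18 (r = 0.931), Defb1 (r = 0.912) and Tgm2 (r = 0.888), for S100a6 they were Actg1 (r = 0.901), Ankrd26 (r = 0.891) and Krt15 (r = 0.882), and S100a13 was most like Hspa8 (r = 0.974). These values describe 12 arrays that share 4 groups and the actin ratio.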

How the data were processed

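Signal intensities were made and deposited by the authors with GCOS 1.4, each array scaled to a 2% trimmed mean of 150 after 2 cycles of amplification, per the submitters' processing notes, labels and deposited notes. The authors also deposited a score per probe set, the sum of calls over 9 pairwise array comparisons, and counts of Present calls. A probe set was kept when above the 40th percentile of its array on at least 3 arrays (30600 kept). Arrays were scaled to a common median of kept probe sets (medians 70.9 to 91.85, factors 0.8761 to 1.135), and log2(signal + 16) was used. Of the probe sets 34958 had 1 symbol, 932 several and 9211 none, and symbols were updated through a RefSeq gene table (GRCm38.p6). limma 3.58.1 in R 4.3.3 fitted 1 mean per group to 12 arrays, with a variance trend (6.05 prior and 8 residual degrees of freedom), p-values were adjusted by Benjamini-Hochberg over 14163 genes, and the script was tested on simulated data. The number of arrays limits the precision.

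The members and gene lists were chosen with earlier results of these data known. All members are named, other S100 genes that passed, and up to 4 partners and 3 genes of the other lists per comparison by smallest p, with the 3 genes of highest Pearson r to a member; not every gene of these rules is printed. Marker genes were named after their values were seen. Alternatives covered scaling, offset, filter, probe set choice, variance model, array weights, a replicate block, the actin ratio, the arrays fitted and leaving out each array. Same-numbered samples of different groups had deviations that correlated between -0.233 and 0.261 over 18 pairs. This showed no clear pairing by number, but with 3 arrays per group it cannot exclude one. No array value is given for S100a11.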

Additional observations from a re-analysis of the deposited data

How the results depend on the processing

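Of 540 member results with 1 array left out and 585 under other settings, 0 reversed a called direction, and 489 and 531 kept direction and side of the threshold. In 67, neither called, the sign differed (log2 size up to 0.29). Leaving out arrays gave 291 to 2069 genes in PN14 over PN9 (985 in full), 3 to 721 in PN20 over PN14 (192), 2082 to 4329 in PN20 over PN9 (3436), 4 to 70 in Klf4CN over PN14 (26) and 1599 to 4060 over the ages (2854). Members called ranged from 0 to 2, 0 to 2, 2 to 4, 0 to 0 and 3 to 4. Below, comparisons keep this order. Array weights gave 2955, 1486, 5816, 448 and 5818 genes. The log2 actin ratio gave 130, 106, 572, 5 and 421 genes, and 0 members in PN14 over PN9, 0 in PN20 over PN9 and 1 over the ages. No filter gave 387, 59, 6 and 1647 genes in all but PN20 over PN9, where the count was within 1.5 times. The median of all probe sets gave 565, 101 and 10 genes in PN14 over PN9, PN20 over PN14 and Klf4CN. PN20 over PN14 gave 106 genes with the mean of probe sets, 118 without variance trend and 1125 with its own groups, which gave 6 genes in Klf4CN. Members called in PN20 over PN14 were 2 with values as deposited, array weights or its own groups, and 0 without filter. Sample numbers showed no clear pairing of the arrays (5 of 12 correlated best with their own number), which does not exclude one. The replicate block gave 101 genes and 0 members in PN20 over PN14 (S100a8 adjusted p = 0.0535). Higher calls in PN14 over PN9 were 62.0%, 48.0% as deposited and 74.9% with the median of all probe sets. In PN20 over PN14 they were 49.0% and, with that median, 27.7%, in PN20 over PN9 55.5% and as deposited 40.7%, and in Klf4CN 42.3% and with that median 30.0%. As deposited, the median of all genes shifted by -0.13 in PN20 over PN9. The cause of these differences was not tested. Signal over background limits S100a9.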
